A study of Mus musculus with 9 samples.

Results

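The genes described here are those of autophagy initiation and of the Atg8 family, the ubiquitin-like proteins that coat the growing autophagosome. The 10 genes are Ulk1, Ulk2, Becn1, Wipi1, Sqstm1, Map1lc3a, Map1lc3b, Gabarap, Gabarapl1 and Gabarapl2. They were chosen by name, and each was read from the probe sets that the array annotation gives to that gene alone, with the brightest one over all 9 arrays as its main value. By this rule 8 of the 10 were measured, among 17097 genes in all. Map1lc3b had no probe set listed for it, and the 1 listed for Sqstm1 is shared with Mrnip, so neither has a value of its own here.

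The samples were mouse CD8+ T cells that recognise the antigen OVA. They were sorted from the spleen on day 9 of an infection with Listeria monocytogenes, 1 expression array per sample. All mice were C57BL/6 and carried floxed Tsc1 alleles. The 4 WT samples came from mice without cre, and the 5 Tsc1-/- samples from mice with Granzyme B-cre, which acts in cells that switch on the granzyme B gene. Every Tsc1-/- mouse and no WT mouse carried cre, so an effect of cre cannot be told apart from one of Tsc1 loss. The labels do not say whether each sample was a separate animal, so the p-values cover the spread among these samples, which may be technical. Levels are log2 RMA values, differences are Tsc1-/- minus WT, and a called gene is one with an adjusted p under 0.05 in limma, a linear model fitted over all genes with Benjamini-Hochberg adjustment. The age of the mice is not given in the sources used here.

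Tsc1 belongs to the complex that restrains mTORC1. Active mTORC1 phosphorylates the kinase Ulk1 and so holds back autophagy, and it keeps the transcription factors Tfeb and Tfe3, which drive autophagy and lysosome genes, out of the nucleus. When the block is lifted, the Ulk kinases activate the class III PI3 kinase complex around Becn1, Wipi proteins bind the lipid it makes, and Atg8 proteins are joined to the membrane, where receptors such as Sqstm1 bring cargo. Much of this control acts on proteins, and the arrays measured only RNA.

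By their main probe sets, none of the 8 measured genes was called in either direction, where 1.28% of all genes were, and none had an unadjusted p under 0.05 (limma), where 17.2% of all genes did. The genotypes overlapped in all 8, against 7.96% of all genes without overlap. Differences lay between -0.07 (Wipi1) and 0.24 (Gabarapl1), with 5 above 0 and 3 under it and a median of 0.05, beside a median of -0.0063 over all genes, of which 48.2% had a difference above 0. Of their further probe sets, 1 was called, a dimmer one of Gabarapl1, which rose by 0.80 and separated the genotypes completely. A further probe set of Becn1 had an unadjusted p of 0.0187 (limma) and was not called.

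Of the 10 genes, 8 had a RefSeq promoter entry (GRCm38.p6, the 250 bases before to 50 after the gene's start), and Map1lc3a and Becn1 had none. The bases upstream of the start are shown for Gabarapl1, the gene with the probe set that rose, and for its close relative Gabarap, whose difference was the next in size, both on the plus strand. The stretch shown for Gabarapl1 is chr6:129532942-129533191 and that for Gabarap is chr11:69991120-69991369. Capitals mark GC boxes, GGGCGG on either strand, a common promoter element bound by Sp1.
Gabarapl1: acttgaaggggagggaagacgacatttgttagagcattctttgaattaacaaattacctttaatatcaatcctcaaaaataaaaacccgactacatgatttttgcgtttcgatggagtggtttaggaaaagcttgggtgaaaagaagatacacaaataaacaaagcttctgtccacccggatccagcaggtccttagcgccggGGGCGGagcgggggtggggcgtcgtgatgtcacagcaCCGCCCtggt
Gabarap: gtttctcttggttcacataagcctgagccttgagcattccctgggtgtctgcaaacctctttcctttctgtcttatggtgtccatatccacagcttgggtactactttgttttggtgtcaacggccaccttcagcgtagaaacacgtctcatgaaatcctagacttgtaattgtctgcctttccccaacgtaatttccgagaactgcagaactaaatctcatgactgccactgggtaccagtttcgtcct
The Gabarapl1 stretch holds a GC box at -47 and another at -10 relative to the start, and the Gabarap stretch holds none. Over the whole windows, 7 of the 8 promoters held a GC box, against 35.7% of 32851 mouse promoters of the same length. None of the 8 held TCACGTG, the core of the element bound by Tfeb (3.77% of all promoters), CACGTG, the E-box formed by that core's last 6 letters (7.15%), or GTAAACA, a FoxO motif (3.65%), on either strand. The antioxidant element TGACNNNGC stood in those of Map1lc3b and Ulk2 (12.4% of all). CCAAT was in none (37.4% of all) and TATAAA in 1 (13.6%). These are matches of letters and say nothing of binding.

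The arrays were alike, with medians of 5.97 to 6.05 and Pearson correlations of 0.982 to 0.991 between pairs of arrays over all probe sets. Tsc1, the targeted gene, was lower in every Tsc1-/- array than in any WT array by its brightest probe set (-0.26, SE 0.08, exact permutation p = 0.00794, the smallest that 126 splits of 9 arrays can give). It was not called (adjusted p = 0.114, limma), and of 21 other settings it was called in 1, with dim genes left out (adjusted p = 0.0495, limma). Its further probe sets differed by -0.32 (exact permutation p = 0.0238; adjusted p = 0.166, limma) and -0.01 (exact permutation p = 0.889), neither called. Their positions relative to the deleted part of the gene were not analysed here, which limits this check of the labels. T cell markers were high and alike on all arrays, with a mean of 11.65 to 11.73 over 6 measured genes. The mean of 13 macrophage and monocyte markers was 6.39 to 6.71 in the Tsc1-/- arrays. In WT it was 7.11 to 7.25, except for replicate 4 at 6.57. Of the 13, 12 were lower in Tsc1-/- and 1, Spic, was called. That of 8 B cell markers was 5.46 to 6.14 in WT and 5.21 to 5.90 in Tsc1-/-, all 8 of them lower and none called. The mean of the 2 measured NK cell markers was 5.77 to 6.03 in WT and 5.43 to 5.70 in Tsc1-/-, without overlap. All 6 dendritic cell and all 7 neutrophil markers were lower in Tsc1-/- too, with overlapping means, and no NK cell, dendritic cell or neutrophil marker was called. The part of other cell types in the differences of the autophagy genes was not tested, beyond the 2 models with marker levels. In these bulk samples, a change in the share of a cell type and one in RNA per cell cannot be told apart.

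Ulk1, the kinase that starts autophagy, read 7.36, 7.39, 7.25 and 7.33 in WT replicates 1 to 4 and 7.07, 7.38, 7.45, 7.53 and 7.51 in Tsc1-/- replicates 1 to 5. Tsc1-/- replicate 1 was the lowest of all arrays and 3 of the other 4 lay above every WT array. The difference was 0.06 (SE 0.10, 95% interval -0.16 to 0.27, adjusted p = 0.815, limma), an interval that reaches from 0.898-fold to 1.21-fold. Its further probe set differed by 0.04.

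Ulk2, a kinase closely related to Ulk1, read 7.59, 7.47, 7.60 and 7.70 in WT and 7.42, 7.64, 7.64, 7.30 and 7.74 in Tsc1-/- replicates 1 to 5. The Tsc1-/- arrays spread on both sides of the WT range. The difference was -0.04 (SE 0.10, 95% interval -0.26 to 0.17, adjusted p = 0.864, limma), and the other 3 probe sets ran from -0.20 to 0.01, with none called.

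Becn1, the scaffold of the class III PI3 kinase complex, read 8.59, 8.83, 8.62 and 8.65 in WT and 8.59, 8.72, 8.72, 8.69 and 8.83 in Tsc1-/-. The ranges were the same to within 0.01, and the difference was 0.04 (SE 0.08, 95% interval -0.14 to 0.21, adjusted p = 0.857, limma). A dimmer probe set of Becn1 has a suffix that marks it as able to detect transcripts of more than 1 gene. It read 8.05 to 8.34 in WT and 8.28 to 8.56 in Tsc1-/-. That difference of 0.25 (SE 0.09, exact permutation p = 0.0317) was not called over all probe sets (adjusted p = 0.206, limma), and the last Becn1 probe set differed by 0.04.

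Wipi1, which binds the lipid made by the Becn1 complex, read 6.63, 7.10, 6.82 and 7.12 in WT and 6.83, 6.86, 6.89, 6.85 and 6.80 in Tsc1-/-. All 5 Tsc1-/- arrays lay inside the WT range, which was far wider (SD 0.24 against 0.033). The difference was -0.07 (SE 0.10, 95% interval -0.29 to 0.15, adjusted p = 0.777, limma). Of its 5 other probe sets, 4 differed by -0.20 to -0.08 and the dimmest by 0.16, none of them called.

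The Atg8 family has an LC3 branch and a GABARAP branch. Map1lc3a, the LC3 gene measured here, read 7.74, 8.12, 7.89 and 8.33 in WT and 8.17, 8.16, 8.10, 8.18 and 8.31 in Tsc1-/-. The Tsc1-/- arrays all fell within the WT range and above the WT mean of 8.02 ± 0.26 (SD, n = 4), with a mean of 8.18 ± 0.079 (SD, n = 5). The difference was 0.16 (SE 0.11, 95% interval -0.08 to 0.41, adjusted p = 0.487, limma), and its further probe set differed by 0.19.

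Gabarap, the namesake of its branch, read 10.46, 10.52, 10.44 and 10.46 in WT, the closest WT values of the 8 genes (SD 0.036). In Tsc1-/- replicates 1 to 5 it read 10.38, 10.78, 10.74, 10.63 and 10.76. Replicate 1 lay under every WT array and the other 4 above every WT array. The difference was 0.19 (SE 0.09, 95% interval -0.0086 to 0.39, adjusted p = 0.311, limma; exact permutation p = 0.0794), and without Tsc1-/- replicate 1 it was 0.26 (adjusted p = 0.107, limma).

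Gabarapl2, also called GATE-16, read 9.78, 9.96, 9.97 and 9.91 in WT and 9.72, 9.91, 9.85, 9.93 and 9.94 in Tsc1-/-. Neither genotype stood apart. The difference was -0.03 (SE 0.08, 95% interval -0.20 to 0.14, adjusted p = 0.872, limma), so the interval spans 0.868-fold to 1.10-fold.

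**Figure D1:**
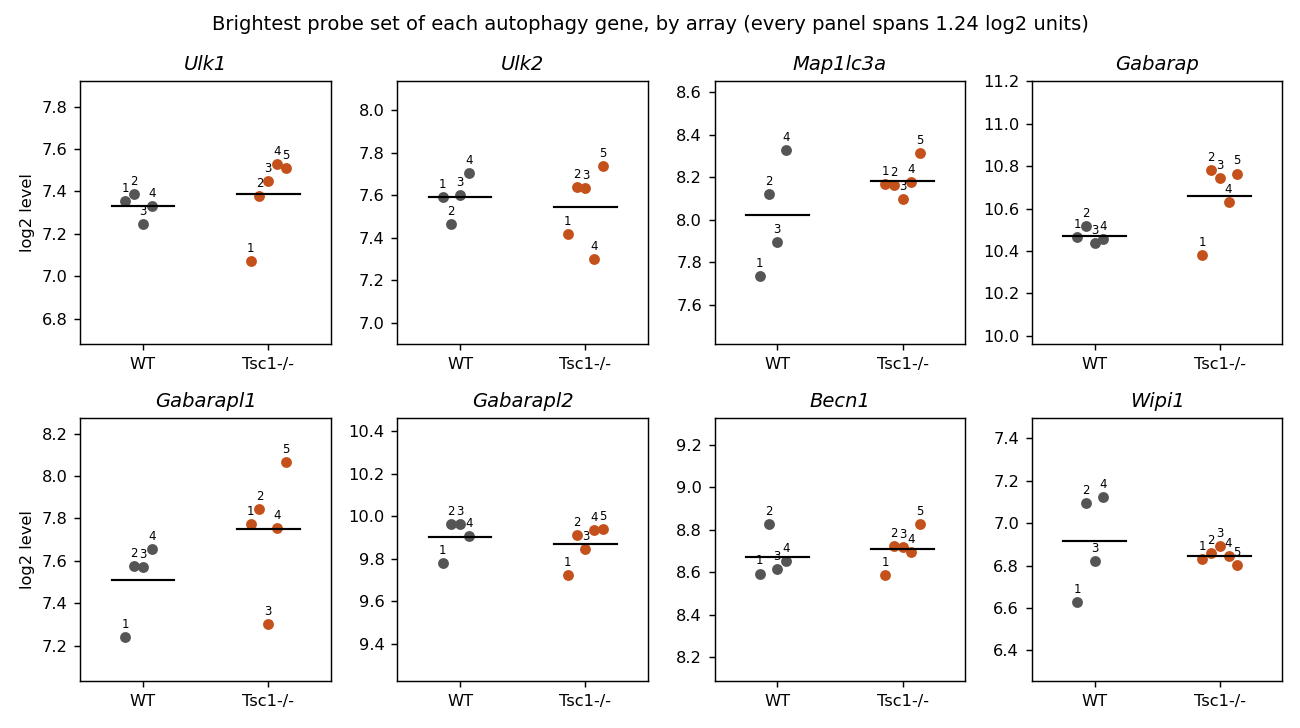
Log2 level (y axis) of the brightest probe set of each of the 8 measured genes in WT (grey, n = 4) and Tsc1-/- (orange, n = 5), 1 point per array with its replicate number and a bar at the mean; every panel spans the same number of log2 units. The groups overlap in each panel, and Tsc1-/- replicate 1 is the lowest array for Ulk1 (7.07), Gabarap (10.38), Gabarapl2 (9.72) and Becn1 (8.59).

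Tsc1-/- replicate 1 was the lowest Tsc1-/- array for 4 of the 8 genes, and 2 of the 8 were above the WT mean on it, against 5 to 7 on the other Tsc1-/- arrays. On this array the median gene of the 8 lay at -0.09 relative to its WT mean, and on the other 4 between 0.05 and 0.17. The WT arrays ran from -0.10 (replicate 1) to 0.06 (replicate 2). The ranges of the genotypes overlapped.

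Gabarapl1, a member of the GABARAP branch, was the gene whose probe sets parted. Its brighter probe set, 1416419_PM_s_at, read 7.24, 7.58, 7.57 and 7.66 in WT and 7.77, 7.84, 7.30, 7.76 and 8.07 in Tsc1-/-. Of the Tsc1-/- arrays, 4 lay above every WT array and replicate 3 lay near the lowest WT array. The difference was 0.24 (SE 0.14, 95% interval -0.06 to 0.54, adjusted p = 0.406, limma).

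Its dimmer probe set, 1416418_PM_at, read 6.88, 6.86, 6.67 and 7.01 in WT and 7.60, 7.67, 7.46, 7.59 and 7.98 in Tsc1-/-. Every Tsc1-/- array lay above every WT array. The mean rose by 0.80 (SE 0.11, 95% interval 0.56 to 1.04), from 6.86 ± 0.14 (SD, n = 4) to 7.66 ± 0.19 (SD, n = 5), with an adjusted p of 0.0179 (limma) over 28898 single-gene probe sets, of which 0.827% were called (exact permutation p = 0.00794). It was the 1 probe set called among the 21 of these 8 genes, and the 1 whose genotypes did not overlap. For comparison, the genotypes did not overlap in 7.96% of all genes by their brightest probe sets. That share was not taken over all single-gene probe sets. The gap between both probe sets on the same array narrowed from -0.66 ± 0.22 (SD, n = 4) in WT to -0.09 ± 0.14 (SD, n = 5) in Tsc1-/-, a difference of 0.57. This gap was taken up after both differences were seen, and it is given with no test. Their positions on the transcript were not analysed here, and the suffix of the brighter one marks it as able to detect transcripts of more than 1 gene. The main probe sets of Wipi1, Atg5, Wdr45 and Prkag2 carry the same suffix.

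With the mean of both probe sets in place of the brighter one, Gabarapl1 was called (0.52, adjusted p = 0.0492, limma). WT replicate 4, whose macrophage marker level (6.57) lay among those of Tsc1-/-, read 7.01 on the dimmer probe set, the highest of the WT values. The next WT value was 6.88 (replicate 1), and the lowest Tsc1-/- value was 7.46. With each array's macrophage marker level added to the model, the rise of the dimmer probe set was 0.66 and not called (adjusted p = 0.320, limma). With that of B cells it was 0.68 and not called (adjusted p = 0.156, limma). By their main probe sets, no gene at all was called with either covariate, and that count was not made over all single-gene probe sets. The macrophage marker level was lower in Tsc1-/- than in WT apart from WT replicate 4, so the model can hardly separate it from genotype. The cause of the rise was not tested. The dimmer probe set was also not called without WT replicate 1 (0.81, adjusted p = 0.0894, limma) or without WT replicate 2 (0.81, adjusted p = 0.0789, limma). It was called without any 1 of the other 7 arrays (0.72 to 0.85).

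**Figure D2:**
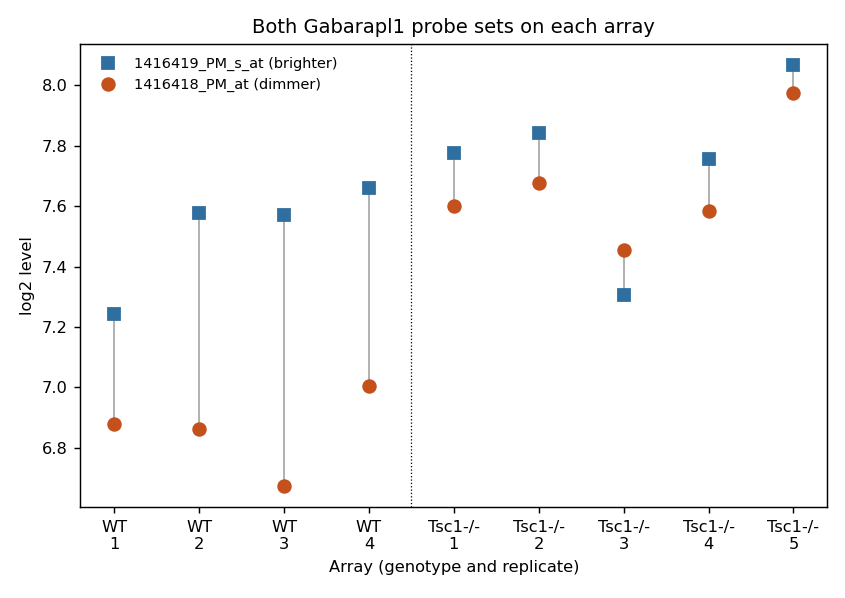
Log2 level (y axis) of both Gabarapl1 probe sets on each of the 9 arrays (x axis, genotype and replicate number), joined by a grey line per array. The dimmer probe set (orange circles) is at 6.67 to 7.01 in WT and 7.46 to 7.98 in Tsc1-/-, while the brighter one (blue squares) overlaps between genotypes.

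**Figure D3:**
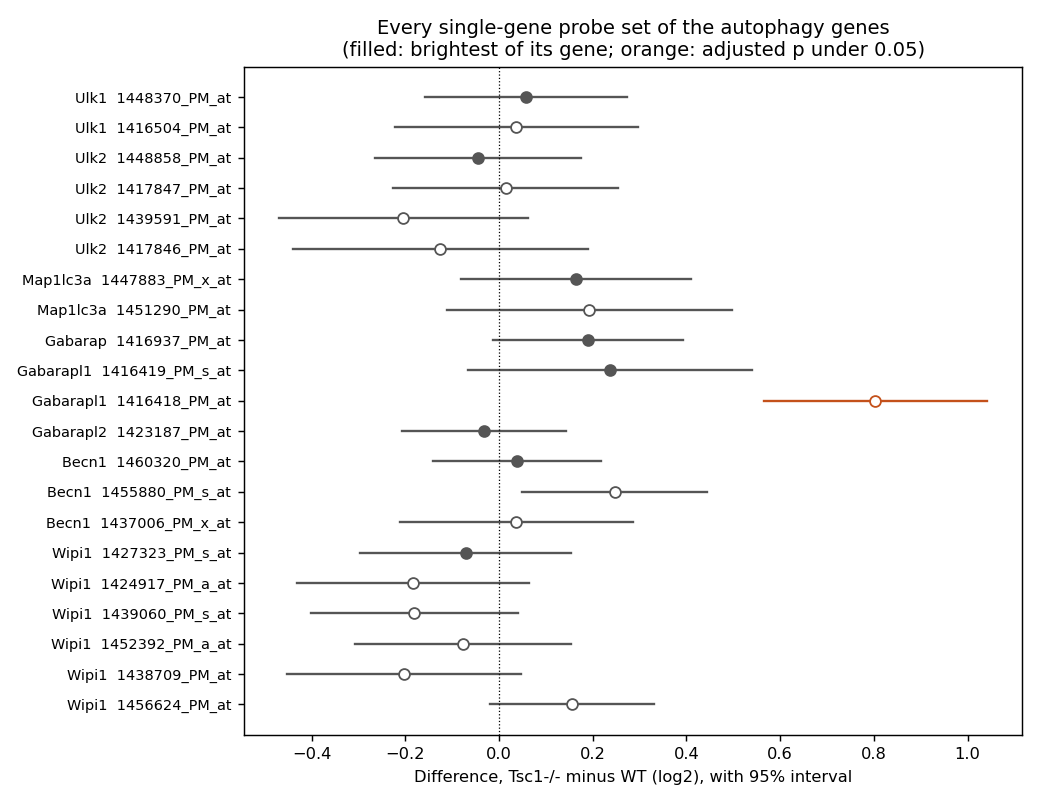
Difference between Tsc1-/- (n = 5) and WT (n = 4) on the log2 scale (x axis) for each of the 21 single-gene probe sets of the 8 genes, with limma's 95% interval; filled circles are the brightest probe set of a gene and orange marks an adjusted p under 0.05. The interval of 1416418_PM_at of Gabarapl1, 0.56 to 1.04, lies to the right of 0.

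Over the 21 probe sets, 12 differences were above 0 and 9 under it. Of the 6 genes with several probe sets, Ulk1, Map1lc3a, Gabarapl1 and Becn1 had all theirs above 0, while those of Ulk2 and Wipi1 were of both signs. The probe set shared by Mrnip and Sqstm1, the latter encoding the cargo receptor p62, read 8.64 to 8.73 in WT and 8.72 to 9.05 in Tsc1-/-, with the highest value in Tsc1-/- replicate 5. Its difference of 0.14 (SE 0.09, adjusted p = 0.50, limma; exact permutation p = 0.0635) cannot be assigned to either gene.

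Map1lc3a and Gabarapl1 were the measured genes whose SD over the 9 arrays (0.19 and 0.26) reached the median of all genes (0.16), and for these the genes with the most similar pattern were sought. Likeness was the root mean square difference between the 9 log2 values of each gene after its mean was taken off. Nearest to Map1lc3a were Carnmt1 (0.045), Utp6 (0.063) and Ube2e3 (0.066), beside a median of 0.23 over all genes. Nearest to the main Gabarapl1 probe set were Specc1 (0.090), Pramel3 (0.10) and Nop9 (0.11), beside a median of 0.28. None of these 6 genes was called.

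Around these genes, 93 others of the autophagy pathway and its regulators were listed in 10 groups and 83 were measured. Of the 83, 1 rose and none fell, where 0.971% of all genes rose and 0.310% fell. The median difference was 0.0060, with 46 above 0 and 37 under it, and the genotypes did not overlap in 6 (7.96% of all genes). An unadjusted p under 0.05 was reached by 17 of the 83 (20.5%, beside 17.2% of all genes): 3 each in conjugation, fusion and lysosome genes, 2 each among the transcription factors and the Nrf2 targets, and 1 each in the Ulk1, class III PI3 kinase, cargo receptor and AMPK groups.

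Among the partners of Ulk1 and of Atg9a, none of 9 genes was called (median 0.01). Atg101, a subunit of the Ulk1 complex, had the smallest p, with 7.23, 6.52, 7.03 and 7.27 in WT and 7.05, 7.69, 7.56, 7.43 and 7.54 in Tsc1-/- (0.44, SE 0.16, adjusted p = 0.179, limma). Again Tsc1-/- replicate 1 lay within the WT range while the other 4 lay above it. Atg2a, a lipid transfer protein, differed by -0.18 (adjusted p = 0.506, limma).

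None of 7 class III PI3 kinase genes was called (median -0.01), with Atg14, which directs the complex to autophagosomes, at -0.31 (adjusted p = 0.269, limma) and Ambra1 at -0.14 (adjusted p = 0.447, limma). None of 4 lipid-binding effectors was called either, with the Wipi relatives Wdr45b at 0.17 (adjusted p = 0.499, limma) and Wdr45 at -0.09 (adjusted p = 0.641, limma).

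The enzymes that cut and conjugate Atg8 proteins had a median of -0.08 and none of 9 was called. Atg5, part of the conjugating complex, read 7.47 to 7.70 in WT and 7.80 to 8.0 in Tsc1-/-, without overlap (0.27, SE 0.08, adjusted p = 0.101, limma). It was called after omitting dim genes (adjusted p = 0.0416, limma), while its other probe sets differed by 0.12 and -0.14. Atg4c, a protease of the family that trims Atg8 proteins, was dim, at 4.13 to 4.30 in WT and 3.63 to 4.07 in Tsc1-/- (-0.32, adjusted p = 0.112, limma).

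Of 10 measured cargo receptors none was called (median -0.10). Ccpg1, a receptor for the endoplasmic reticulum, read 8.10 to 8.29 in WT and 7.82 to 8.10 in Tsc1-/-, just without overlap (-0.25, SE 0.08, adjusted p = 0.144, limma). Wdfy3 differed by -0.33 (adjusted p = 0.357, limma), with WT replicate 4 (4.81) as its lowest array. Without that array it was called, at -0.54 (adjusted p = 0.0443, limma), and with the macrophage marker level in the model the difference was 0.075. The other Wdfy3 probe sets differed by -0.01, -0.22 and 0.02 over all arrays, none of them called. The cause was not tested.

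None of 10 genes of autophagosome fusion was called (median 0.03), with the SNARE genes Ykt6 at 0.24 (adjusted p = 0.156, limma) and Snap29 at 0.24 (adjusted p = 0.185, limma). Of 7 genes for AMPK, the energy sensor that activates Ulk1, and its upstream kinase, none was called (median 0.09), with the subunits Prkag2 at 0.27 (adjusted p = 0.237, limma) and Prkab2 at -0.15 (adjusted p = 0.366, limma). Further probe sets of Prkag2 differed by 0.47 (adjusted p = 0.0956, limma) and 0.22, and those of Prkab2 by 0.04 and -0.17, none of them called.

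Among the transcription factors none of 7 was called (median 0.02). Tfeb differed by -0.02, Foxo3 by 0.0049 and Tfe3 by 0.20 (adjusted p = 0.267, limma). Nfe2l2, which encodes Nrf2, a factor known to drive Sqstm1, read 7.78, 7.68, 7.77 and 7.56 in WT and 7.69, 8.54, 8.48, 8.60 and 8.62 in Tsc1-/-. Replicate 1 of Tsc1-/- lay inside the WT range and the other 4 above it. The difference was 0.69 (SE 0.17, adjusted p = 0.0605, limma), and without that array 0.86 (adjusted p = 0.00509, limma), where it was called. Of 21 other settings Nfe2l2 was called in 7, among them this one and a threshold of adjusted p under 0.1. A further Nfe2l2 probe set differed by 0.47 (SE 0.16).

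Of 7 targets of Nrf2 none was called (median 0.05). Txnrd1, thioredoxin reductase, read 9.00 to 9.23 in WT and 9.40 to 9.55 in Tsc1-/-, without overlap (0.31, SE 0.08, adjusted p = 0.0609, limma). Of 21 other settings it was called in 7, among them a threshold of adjusted p under 0.1. Its highest value was in Tsc1-/- replicate 1, the array in which Nfe2l2 was at its WT level. A link between Txnrd1 and Nfe2l2 was not tested. Hmox1, heme oxygenase, which macrophages express strongly, differed by -0.37 (adjusted p = 0.256, limma), with WT replicate 4 at 7.54 and the other WT arrays at 8.14 to 8.46. Without WT replicate 4 it was called, at -0.57 (adjusted p = 0.0226, limma), and with the macrophage marker level in the model the difference was 0.14. The cause of the Hmox1 difference was not tested.

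Of 13 measured genes of lysosomes known as Tfeb targets, 1 rose and none fell. Lamp2, a lysosomal membrane protein, read 7.54, 7.27, 7.45 and 6.92 in WT and 7.58, 8.34, 8.34, 8.22 and 8.43 in Tsc1-/- (0.89, SE 0.17, adjusted p = 0.0359, limma). Its other probe sets differed by 0.83 (adjusted p = 0.0179, limma) and 0.37 (adjusted p = 0.292, limma). The call was lost under 11 of 21 other settings, among them the model with macrophage marker level (1.03, adjusted p = 0.322, limma), where no gene at all was called. Its relative Lamp1 differed by 0.00059 and the protease gene Ctsd by 0.25 (adjusted p = 0.134, limma).

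**Figure D4:**
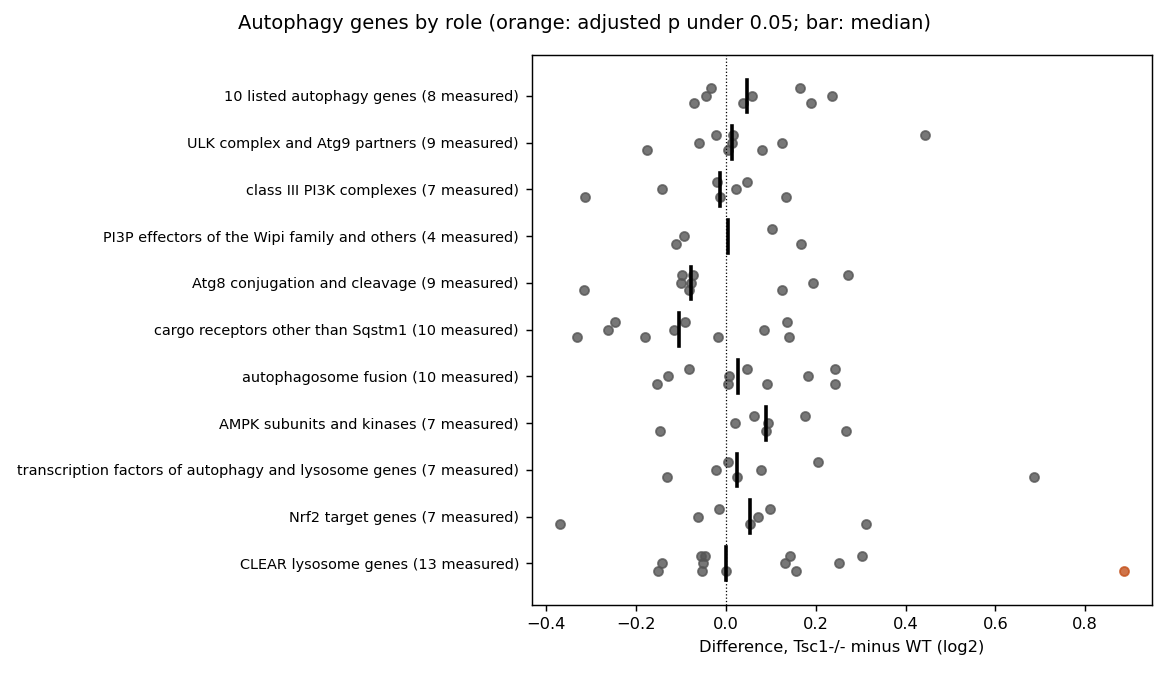
Difference between Tsc1-/- (n = 5) and WT (n = 4) on the log2 scale (x axis) for the 8 measured genes (top) and the 10 other groups of autophagy genes, 1 point per gene, a bar at the median of each group and orange for an adjusted p under 0.05. Lamp2, at 0.89, is the 1 called gene.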

How the data were processed

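RNA of 9 sorted samples was measured on 1 array each, 4 WT and 5 Tsc1-/-, from 12 ng of total RNA per sample. The deposited values are log2 levels per probe set that the authors made with RMA, and Partek 6.5 is named too, per the submitters' processing notes. Its options are not stated there. RMA gives every array the same distribution of probe intensities, which would hide a change common to most genes. Of 45037 probe sets, 28898 had 1 gene in the platform annotation, 551 several and 15588 none. Symbols were updated through Entrez identifiers (28689 matched; GRCm38.p6), and each gene was represented by its brightest probe set.

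Genes were tested in R 4.3.3 with limma 3.58.1 (lmFit, eBayes), genotype as the only term, two-sided, with no filter, adjusted over 17097 genes, or over 28898 probe sets where probe sets were tested singly. The shared Mrnip and Sqstm1 probe set was adjusted over all 45037. Exact permutation tests were two-sided over 126 splits. The test was checked on simulated data with known changes. It called 53% of the genes changed by 0.5 log2 units and 98% of those changed by 1. A gene that was not called may therefore still have changed. The number of arrays limits the precision.

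The genes and lists were chosen with earlier results of these data known. Named were all 10 genes, Tsc1 and, from each other list, up to 3 called genes or the 2 with the smallest p where none was called; Spic, Tfeb, Foxo3, Lamp1 and Ctsd were named after their values were seen. Alternatives covered the probe sets of a gene, dim genes, normalization, the variance model, array weights, a replicate block, the threshold, marker covariates and omitted arrays. The replicate block took only numbers found in both genotypes, so Tsc1-/- replicate 5 was left out of it. The protein sequences of the Atg8 genes were not used here. Figures were drawn with matplotlib 3.10.9 in Python 3.11.15.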

Additional observations from a re-analysis of the deposited data

Results flagged for a closer look

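Of 86 groups of 4 or 5 arrays tested, 5 held an array far from the others of its genotype, and chance flags about 1 in 20. Nfe2l2 was 7.69 in Tsc1-/- replicate 1, where the other Tsc1-/- arrays read 8.48 to 8.62. Lamp2 was 7.58 in the same array, with the others at 8.22 to 8.43. Txnrd1 was 9.55 there, above the 9.40 to 9.44 of the other Tsc1-/- arrays. Atg14 was 5.56 in WT replicate 3, under the 6.11 to 6.16 of the other WT arrays. Tfe3 was 7.02 in WT replicate 1, under the 7.18 to 7.21 of the other WT arrays. None of the 21 probe sets of the 8 measured autophagy genes had such an array in either genotype.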

How the results depend on the processing

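Over 21 other settings, of which 9 left out 1 array each, the number of the 8 genes called higher was 0 except when the probe sets of a gene were averaged (1, Gabarapl1), and none was called lower. Their median difference ran from -0.05 to 0.10 (0.02 to 0.10 with 1 array left out), within 1 SD between replicates (0.13) of the value given. Some differences turned sign, all of them not called. With quantile normalization Becn1 was at -0.0087, and with median centring Gabarapl2 at 0.0099. With the macrophage covariate Ulk1 was at -0.033, Map1lc3a -0.057, Wdr45b -0.097, Wdfy3 0.075 (-0.33 without the covariate) and Hmox1 0.14 (-0.37 without it), and with the B cell covariate Ulk1 was at -0.0056. Without Tsc1-/- replicate 1 Gabarapl2 was at 0.0037, and without Tsc1-/- replicate 4 Ulk2 was at 0.017; with 1 array left out they ran from -0.074 to 0.0037 and from -0.093 to 0.017. Without both WT replicate 4 and Tsc1-/- replicate 1, Ulk2 was at 0.024, Gabarapl2 0.0054 and Wipi1 0.00085. The cause was not tested.

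Of the 83 other autophagy genes, the number called higher was 4 with dim genes left out, 4 with a variance trend, 3 with median centring, 3 with array weights, 3 at an adjusted p under 0.1, 2 with the mean of probe sets, and 0 with quantile normalization, with the macrophage covariate and with the B cell covariate. It was 0 to 2 with 1 array left out, and 2 without both arrays named above, where 1 was called lower. The number called lower was 0 to 2 with 1 array left out. Over all genes the number called higher moved too, from 166 to 543 with dim genes left out and 509 with a variance trend. It was 381 with median centring and 58 with quantile normalization. With dim genes left out fewer genes were tested, and their number is not given here. Same-numbered samples did not deviate together (r of -0.10 to 0.09). The fit with the replicate number as a block used replicates 1 to 4 of each genotype and left out Tsc1-/- replicate 5. That array was the highest for Gabarapl1's dimmer probe set (7.98). With the block none of the 83 was called. Gabarapl1's dimmer probe set differed by 0.72 (adjusted p = 0.117, limma) and Lamp2 by 0.82 (adjusted p = 0.154, limma), neither called. That probe set kept its direction in all 18 settings that gave it a value and its call in 13 (0.66 to 0.87, adjusted p = 0.0037 to 0.320, limma).

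Over all genes, 166 were called higher and 53 lower. These counts were 543 and 151 with dim genes left out, 509 and 171 with a variance trend, 529 and 209 at an adjusted p under 0.1, 340 and 125 with array weights, 381 and 57 with median centring, 58 and 32 with quantile normalization, and 0 and 0 with the block or either covariate (limma; 2354 genes at an unadjusted p under 0.05 with the block, 1605 with the macrophage and 2009 with the B cell covariate). With 1 array left out they ran from 1 to 297 and from 1 to 159. The fit with the block was also without Tsc1-/- replicate 5.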
